A study of Mus musculus with 18 samples.

Results

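The collagen chain genes encode the α chains that fold in threes into collagen molecules. They were taken as every gene whose symbol has the form Col, a type number, the letter a and a chain number, on a probe set annotated to that gene alone. This gave 42 genes of the 18193 genes measured, 11 of them fibrillar collagens, 8 collagens of basement membranes and 23 of other kinds. The last were 9 fibril-associated collagens, 5 chains of type VI, 4 transmembrane collagens, 3 short-chain collagens, the anchoring-fibril chain Col7a1 and Col26a1. Col21a1, Col6a6 and Col28a1 are not analysed here. The rule itself uses symbols and no measured value.

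Retinas came from male C57BL6/J mice, given as 2 months old. All eyes had received an intravitreal injection at day 0, of the vehicle (BSS), of dexamethasone (DEX) or of triamcinolone (TAA in the labels), and the retina was taken at day 7 or at day 30. There were 3 biological replicates for every pairing of a treatment with a day, which makes 6 groups, and 1 Affymetrix array was run per replicate. No uninjected eye is among the arrays, so the injection itself is shared by all groups, and no dose is given in the sources used here. DEX and TAA are synthetic glucocorticoids, used in the eye against inflammation and macular swelling.

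Collagens are the main structural proteins of the extracellular matrix. Fibrillar chains build the cables of sclera, choroid and vessel walls, and a set of cartilage-type chains builds the fibrils of the vitreous gel. Type IV chains, in contrast, form sheet-like networks in the basement membranes of retinal vessels, of the inner limiting membrane and of the lens capsule. Glucocorticoids are known to lower collagen synthesis in skin and other connective tissues, and the trabecular meshwork is studied for matrix changes under steroid treatment.

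Values are log2 units relative to the median of the 18 arrays, so 0 is a probe set's median array and 1 is a doubling over it. They hold no absolute level, and neither the retinal origin of the RNA nor the abundance of a collagen could be read from them. The median residual standard deviation within groups was 0.179 over all genes. The standard deviation over genes of one array ran from 0.163 to 0.378. The share of all genes with their highest value on a given array ran from 2.24% to 14.1%, the latter on TAA day 7 replicate 2, and the highest share of lowest values, 17.4%, was on TAA day 30 replicate 2. The rod and cone markers had their lowest list means on these arrays, -0.35 and -0.32, and lay between -0.08 and 0.17 on the other arrays.

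The spread of the collagens over the arrays was close to that of all genes. The interquartile range over the 18 arrays had a median of 0.237 over the collagens and 0.229 over all genes. Basement membrane collagens had a median of 0.319, fibrillar collagens 0.238 and the others 0.226. The full range between the lowest and the highest array exceeded 1 log2 unit in 17 of the 42 genes and was largest for Col3a1, at 3.11, and smallest for Col13a1, at 0.342. A single array held many of the extremes: 9 of the 42 collagens had their highest value on TAA day 30 replicate 3, against 3.12% of all genes. The array medians over the collagens stayed between -0.06 and 0.07.

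**Figure D1:**
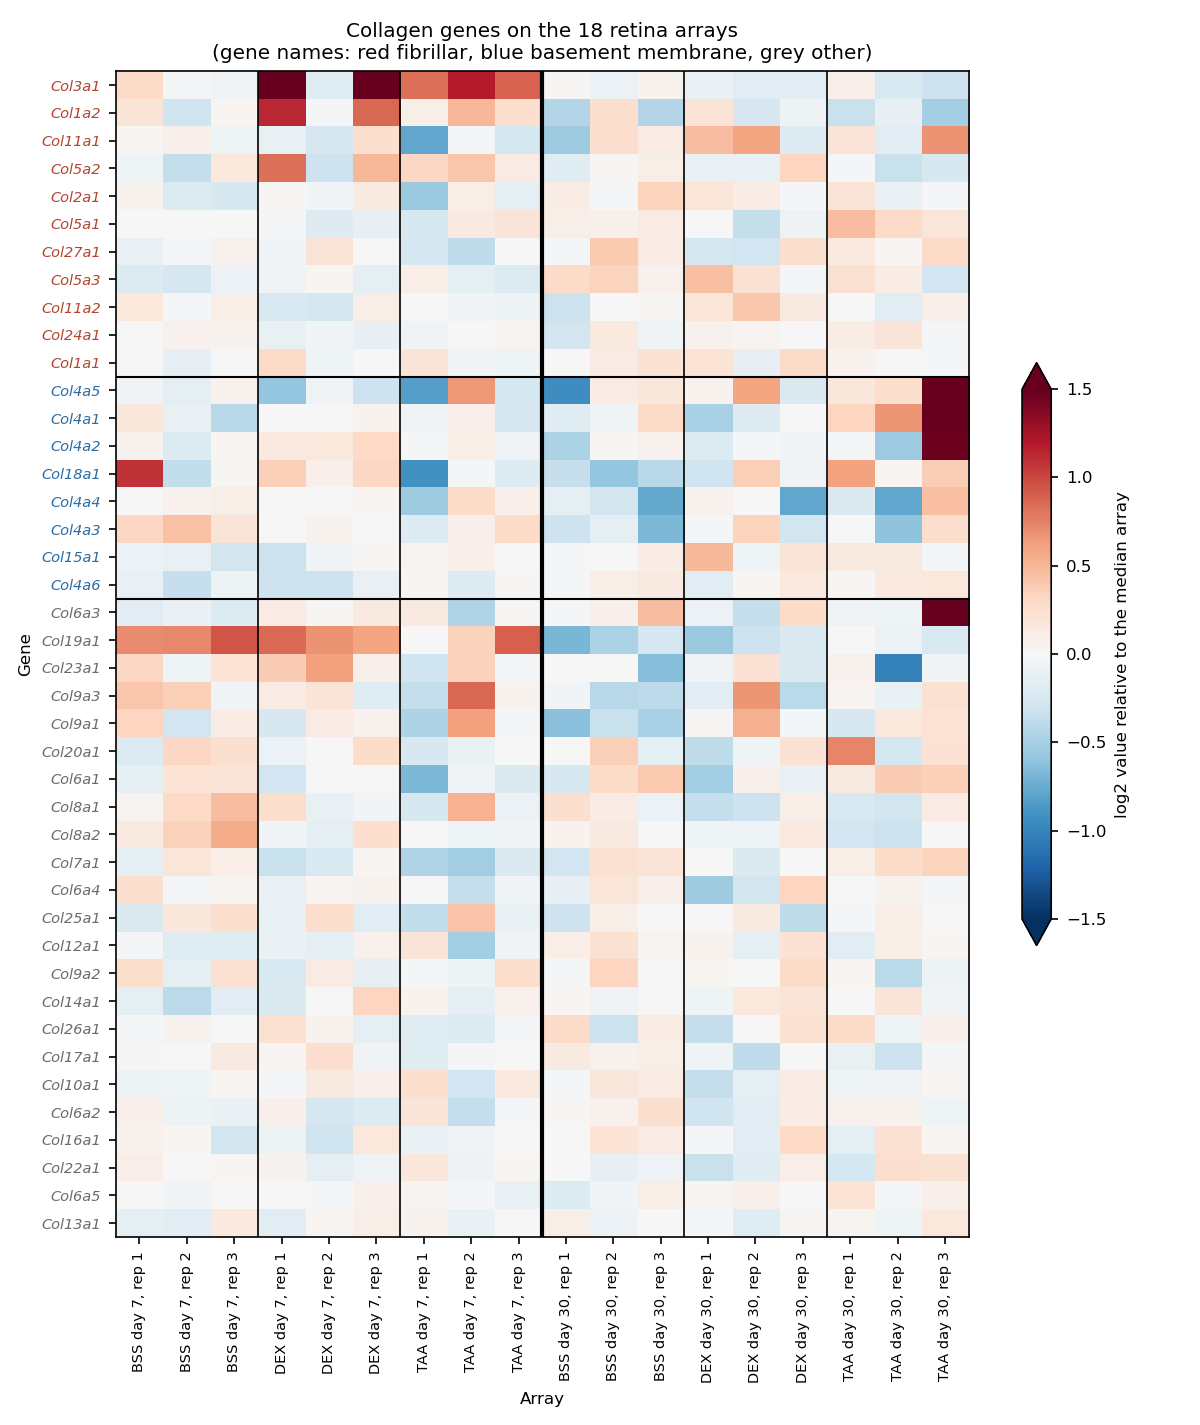
Values of the 42 collagen genes (rows, grouped as fibrillar, basement membrane and other) on the 18 arrays (columns, by group), as log2 units relative to each gene's median array, with colours capped at -1.5 and 1.5. Col19a1 is high on the day 7 arrays and low on the day 30 arrays, Col3a1 and Col1a2 stand out on DEX day 7 replicates 1 and 3, and Col4a1, Col4a2, Col4a5 and Col6a3 on TAA day 30 replicate 3.

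Col19a1 was the collagen that differed between the days. It encodes a fibril-associated collagen with an interrupted triple helix that subsets of neurons in the brain are known to secrete. The gene lies on chromosome 1 (chr1:24257683-24587922, RefSeq, GRCm38.p6). At day 7 its values were 0.71, 0.72 and 0.94 after BSS, 0.85, 0.67 and 0.59 after DEX and -0.0029, 0.34 and 0.90 after TAA. At day 30 they were -0.68, -0.47 and -0.25 after BSS, -0.56, -0.31 and -0.22 after DEX and 0.0029, -0.092 and -0.23 after TAA. The 9 arrays of day 7 lay between -0.0029 and 0.94 and the 9 of day 30 between -0.68 and 0.0029, so that only TAA day 7 replicate 1 and TAA day 30 replicate 1 crossed. In each treatment the mean was lower at day 30: it went from 0.79 ± 0.13 (SD, n = 3) to -0.47 ± 0.21 after BSS, from 0.71 ± 0.13 to -0.36 ± 0.17 after DEX and from 0.41 ± 0.46 to -0.11 ± 0.12 after TAA.

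In the model fitted to all genes with limma, Col19a1 fell from day 7 to day 30 over the treatments by 0.95 ± 0.10 (SE) log2 units, to 0.518 of its day 7 value (adjusted p = 0.000268). This call held when any one of the 18 arrays was left out, with differences between -0.87 and -1.02 and adjusted p of at most 0.00141. Between the BSS groups alone it fell by 1.26 ± 0.18 (adjusted p = 0.0124), and the 3 arrays of each day did not overlap. That narrower call needed most of its arrays, since the adjusted p was 0.0882 without BSS day 7 replicate 2, 0.135 without replicate 3, 0.143 without BSS day 30 replicate 1 and 0.0819 without replicate 2. All 3 probe sets of Col19a1 were lower at day 30, by 0.95, 0.80 and 0.37 over the treatments. Whether fewer cells made its RNA or each cell held less of it cannot be told apart in whole retina.

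No drug difference of Col19a1 passed. At day 7 DEX differed from BSS by -0.09 ± 0.18 and TAA by -0.38 ± 0.18, and at day 30 by 0.11 ± 0.18 and 0.36 ± 0.18. The change of the TAA effect between the days was 0.74 ± 0.25, with an adjusted p of 0.755. At each day both drugs were set against the same vehicle arrays. The lens markers were higher at day 30 on the same arrays, all 10 of 10 by a median of 1.10 over the treatments, none of them past the threshold. Their part in the Col19a1 result was not tested. On BSS day 30 replicate 2, where the lens list mean was -0.14, Col19a1 stood at -0.47.

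Col19a1 was the only collagen called in either comparison of the days. Over the treatments 1 of 42 collagens passed an adjusted p of 0.05, against 2.96% of all genes (539 of 18193), and between the BSS groups 1 of 42, against 0.0275% (5 genes). At an unadjusted p under 0.05, 10 collagens differed between the days over the treatments, where 21.2% of all genes did, and 7 between the BSS groups, where 7.81% did. The median day difference of the collagens was 0.04, near the -0.0080 of all genes.

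Below the threshold, the time comparison over treatments placed Col3a1 at -0.95 ± 0.26 (adjusted p = 0.0536) and Col1a2 at -0.50 ± 0.14 (adjusted p = 0.0687). The 3 highest differences were those of Col5a3, a minor fibrillar chain, at 0.26 ± 0.08 (adjusted p = 0.0878), of Col7a1 at 0.25 ± 0.09 (adjusted p = 0.112) and of Col4a6 at 0.22 ± 0.07 (adjusted p = 0.0738). On their second probe sets Col3a1 and Col1a2 had the opposite sign, at 0.020 and 0.55, while the third probe set of Col1a2 gave -0.42. Calls were gained when a single array was dropped. Without DEX day 7 replicate 2 both Col3a1 (-1.23, adjusted p = 0.000129) and Col1a2 (-0.61, adjusted p = 0.0265) passed. Col7a1 passed without BSS day 30 replicate 1 (0.30, adjusted p = 0.0452), and Col5a3 without TAA day 30 replicate 3 (0.31, adjusted p = 0.0444). Of all 18193 genes these omissions called 211, 588 and 471, in that order.

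Between the BSS groups, 8 collagens were higher at day 30 and 5 lower with no overlap of the 3 arrays a day, where 10.6% and 12.2% of all genes were. The lower ones included Col4a3, a type IV chain, at -0.69 ± 0.20 (adjusted p = 0.43), and Col9a3, a chain of the type IX collagen on vitreous fibrils, at -0.53 ± 0.27 (adjusted p = 0.645). Among the higher ones were Col5a3 at 0.41 ± 0.14 (adjusted p = 0.523), Col6a3 at 0.33 ± 0.37 (adjusted p = 0.82) and Col12a1 at 0.26 ± 0.15 (adjusted p = 0.673). The Col6a3 difference was 0.19 without BSS day 30 replicate 3, and that of Col12a1 was -0.023 on its second probe set.

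**Figure D2:**
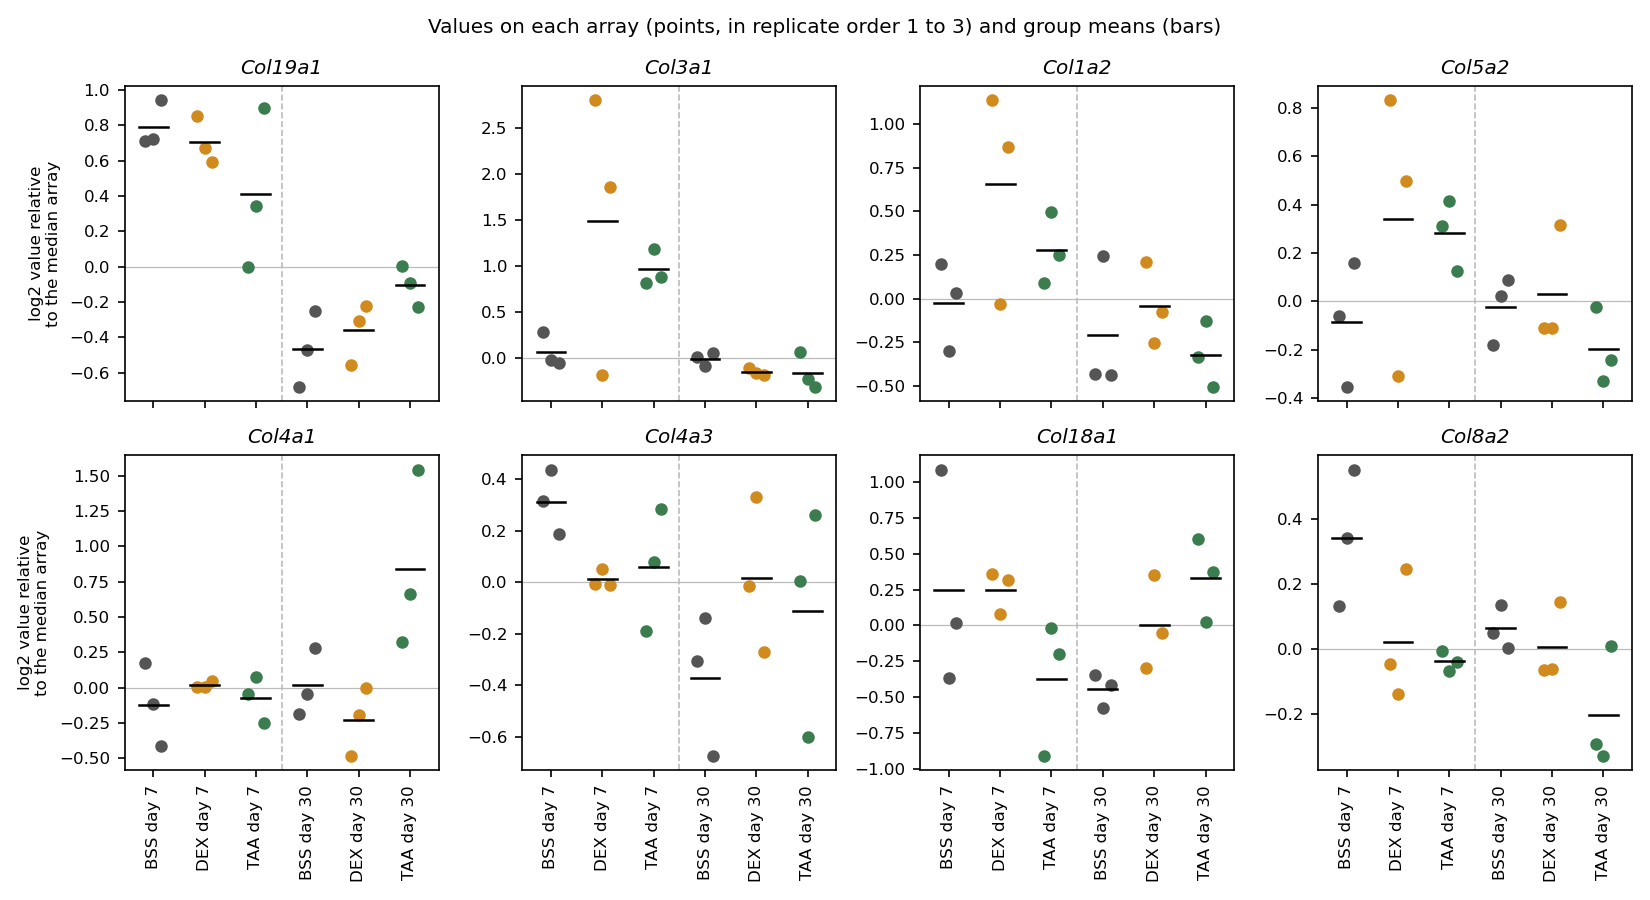
Values of 8 collagen genes on each array (points, in replicate order) with the group means (bars), in log2 units relative to the gene's median array; the vertical axes differ between panels and the dashed line separates day 7 from day 30. Col19a1 separates the days except for its TAA arrays, Col3a1 is high on DEX day 7 replicates 1 and 3 and on all 3 TAA day 7 arrays, and Col4a1 is highest in the TAA day 30 group.

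Among the fibrillar collagens, Col3a1, Col1a2 and Col5a2 lay highest on drug arrays of day 7, without passing. The class as a whole did not share this, with a median difference of 0.12 after DEX (7 of 11 above 0) and 0.032 after TAA. Col3a1, the only chain of type III collagen, a fibril of vessel walls and loose connective tissue, had values of 0.29, -0.015 and -0.048 after BSS at day 7. After DEX it stood at 2.80, -0.18 and 1.86, and after TAA at 0.82, 1.19 and 0.89. At day 30 it was 0.015, -0.083 and 0.055 after BSS, -0.10, -0.16 and -0.18 after DEX and 0.074, -0.23 and -0.31 after TAA. Thus 5 of the 6 drug arrays of day 7 lay above every vehicle array and above every array of day 30, and DEX day 7 replicate 2 did not.

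The Col3a1 difference from BSS at day 7 was 1.42 ± 0.44 after DEX, where the groups overlapped, and 0.89 ± 0.44 after TAA, where they did not. Neither passed (adjusted p of 1 in both). Each standard error of Col3a1, at either day, used 1 spread pooled over the 6 groups. The SD of Col3a1 was 1.52 in DEX day 7, 0.20 in TAA day 7 and 0.18 in BSS day 7. Without DEX day 7 replicate 2, the DEX difference was 2.26 ± 0.21 (adjusted p = 0.000149), and without replicate 1 it was 0.77 ± 0.36. Leaving out replicate 2 also brought the DEX effect over both days to 1.06 (adjusted p = 0.0195). It brought the change of the DEX effect between the days from -1.56 ± 0.63 (adjusted p = 0.53) to -2.40 (adjusted p = 0.00377). Without DEX day 7 replicate 1 that change was -0.91. Of all 18193 genes, leaving out DEX day 7 replicate 2 called 1 for DEX at day 7, 1 over both days and 1 for the change. A second Col3a1 probe set stayed flat, with differences of 0.051 after DEX and -0.045 after TAA at day 7. At day 30 the DEX arrays of Col3a1 lay below the BSS arrays without overlap, at a difference of -0.14 ± 0.44.

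Col1a2, the second chain of type I collagen, had 0.20, -0.30 and 0.033 after BSS at day 7, 1.14, -0.033 and 0.87 after DEX and 0.088, 0.50 and 0.25 after TAA. At day 30 it had -0.43, 0.24 and -0.44 after BSS, 0.21, -0.26 and -0.08 after DEX and -0.33, -0.13 and -0.51 after TAA. The same DEX arrays, replicates 1 and 3, were its 2 highest. Its day 7 difference was 0.68 ± 0.25 after DEX and 0.30 ± 0.25 after TAA, with overlapping groups, and its DEX effect over both days was 0.42 ± 0.18 (adjusted p = 0.83). The DEX difference at day 7 was 0.44 without DEX replicate 1 and 1.03 without replicate 2, and the TAA difference 0.16 without BSS replicate 2 and 0.19 without TAA replicate 2. Of the other probe sets of Col1a2, one showed 0.76 after DEX at day 7 and one -0.43. The DEX effect over days had the opposite sign, -0.10, when the second probe set was used.

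Col5a2, a chain of type V collagen that starts and thins type I fibrils, followed the same arrays. Its values were -0.061, -0.35 and 0.16 after BSS, 0.83, -0.31 and 0.50 after DEX and 0.31, 0.41 and 0.13 after TAA at day 7. At day 30 they were -0.18, 0.021 and 0.087, -0.11, -0.11 and 0.32 and -0.021, -0.33 and -0.24 in the same order. The day 7 differences were 0.42 ± 0.22 after DEX and 0.37 ± 0.22 after TAA. The former was 0.18 without DEX replicate 1 and 0.75 without replicate 2, and the latter 0.24 without BSS replicate 2. On the second probe set they were 0.16 and 0.12. Col1a1, the main chain of type I collagen, did not share them: it had -0.0002, -0.13 and -0.002 after BSS, 0.28, -0.068 and 0.0002 after DEX and 0.19, -0.046 and -0.069 after TAA at day 7, and 0.0073, 0.12 and 0.22, 0.20, -0.12 and 0.29 and 0.057, -0.011 and -0.022 at day 30. Its day 7 differences were 0.12 ± 0.12 and 0.068 ± 0.12, and its groups overlapped.

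Markers of fibroblasts were looked at on the same arrays, since sclera and choroid adjoin the retina. Of the 10 markers, 4 had their lowest DEX day 7 value on replicate 2, the array low in Col3a1, decorin (Dcn) and lumican (Lum) among them. The others did not, fibromodulin (Fmod) standing at 0.61, 0.49 and 0.23 and dermatopontin (Dpt) below 0 on all 3 DEX arrays. The mean of the whole 10-gene fibroblast list was 0.22, 0.03 and 0.22 on the DEX day 7 arrays, between -0.22 and 0.02 on the TAA day 7 arrays, and highest, at 0.50, on BSS day 7 replicate 1. Col3a1 was 0.29 on that array. None of the 10 passed in any drug comparison.

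Other marker lists also lay apart from vehicle at DEX day 7, though none of their genes passed. Markers of Mueller glia lay above vehicle in 9 of 9 genes, by a median of 0.50, and those of microglia and leukocytes in 10 of 10, by 0.45. Markers of the pigment epithelium lay below vehicle in 10 of 11, with a median of -0.54. The endothelial list mean was 0.11, 0.14 and 0.11 on the DEX arrays and between -0.026 and -0.016 on the BSS arrays. On DEX replicate 2, where Col3a1 was -0.18, the Mueller glia mean was 0.19, the microglia mean 0.55 and the pigment epithelium mean -0.62. The part of these cell types and of fibroblasts in the Col3a1 difference was not tested.

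Since Col3a1 and Col1a2 were high on the same arrays, the 250 bases before their annotated starts are shown, 5′ to 3′ on the plus strand of GRCm38.p6 from RefSeq. Capitals mark matches, on either strand, to 4 short motifs. The GC box was searched as GGGCGG. The CCAAT box was searched by the letters of its name. The TATA box was searched as TATAAA. The half-site of the glucocorticoid receptor was searched as AGAACA. No match overlaps another in these stretches. The first lies at chr1:45311288-45311537 and the second at chr6:4505368-4505617.
Col3a1: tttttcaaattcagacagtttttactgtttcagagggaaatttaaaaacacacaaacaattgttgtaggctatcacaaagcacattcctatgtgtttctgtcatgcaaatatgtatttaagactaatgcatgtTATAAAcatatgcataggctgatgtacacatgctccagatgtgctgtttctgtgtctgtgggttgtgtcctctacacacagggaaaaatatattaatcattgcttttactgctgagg
Col1a2: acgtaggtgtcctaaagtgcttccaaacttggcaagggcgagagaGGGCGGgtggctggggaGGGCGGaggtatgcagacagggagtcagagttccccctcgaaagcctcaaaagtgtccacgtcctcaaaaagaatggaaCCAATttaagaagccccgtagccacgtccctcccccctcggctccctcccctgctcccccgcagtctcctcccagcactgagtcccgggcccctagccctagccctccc
The Col3a1 stretch holds 1 match, a TATA box 117 bases before the start. The Col1a2 stretch holds 3, a pair of GC boxes 205 and 188 bases before the start and a CCAAT box at 109. Neither has the receptor half-site within these 250 bases.

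Of the 42 collagens, 33 had such a stretch in the RefSeq table. GC boxes were in 20 of the 33, where 32.9% of all 27025 genes had one, and CCAAT boxes in 12, against 34.5%. TATA boxes were in 5 of them, against 13.0% of all genes. The receptor half-site was in 2, Col9a1 and Col20a1, against 16.2%.

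None of the chains of the vitreous fibrils passed against vehicle. Col2a1, the type II chain, had 0.057, -0.21 and -0.24 after BSS, 0.015, -0.037 and 0.13 after DEX and -0.56, 0.10 and -0.14 after TAA at day 7, and 0.11, -0.015 and 0.33, 0.18, 0.11 and -0.015 and 0.20, -0.094 and -0.017 at day 30. Its drug groups overlapped the vehicle at both days. Col11a1, a chain inside type II fibrils, had 0.031, 0.075 and -0.059, -0.11, -0.25 and 0.26 and -0.78, -0.031 and -0.26 at day 7 and -0.54, 0.25 and 0.13, 0.46, 0.60 and -0.19 and 0.19, -0.17 and 0.67 at day 30, in the same order of groups. It overlapped too.

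Col9a1, a chain of type IX collagen on the surface of those fibrils, had 0.32, -0.29 and 0.11 after BSS, -0.24, 0.13 and 0.062 after DEX and -0.46, 0.61 and -0.02 after TAA at day 7. At day 30 the BSS arrays stood at -0.63, -0.33 and -0.48, below all DEX arrays at 0.014, 0.53 and -0.014 and all TAA arrays at -0.24, 0.16 and 0.20. The day 30 differences were 0.66 ± 0.23 for DEX (adjusted p = 0.374) and 0.52 ± 0.23 for TAA (adjusted p = 0.683), and the DEX effect changed between the days by 0.72 ± 0.33 (adjusted p = 0.563). Both rest on the same vehicle arrays, and the second probe set of Col9a1 gave 0.12 and 0.14. Col11a2, another type XI chain, was also higher after DEX at day 30, by 0.34 ± 0.13 without overlap (adjusted p = 0.381), and its DEX effect changed between the days by 0.55 ± 0.18 (adjusted p = 0.424).

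Basement membrane collagens lay above vehicle after TAA at day 30, though none passed, and 1 array carried much of it. All 8 had differences above 0 in that comparison, with a median of 0.35, where the median of all genes was -0.025. Without TAA day 30 replicate 3 the median was 0.089. Groups did not overlap for Col4a1 and Col18a1.

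Col4a1 and its partner Col4a2 form the type IV network found in all basement membranes. Col4a1 had 0.17, -0.12 and -0.41 after BSS, 0.0044, 0.0046 and 0.051 after DEX and -0.047, 0.074 and -0.25 after TAA at day 7. At day 30 it had -0.18, -0.047 and 0.28 after BSS, -0.48, -0.20 and -0.0044 after DEX and 0.33, 0.66 and 1.54 after TAA. On this probe set all 3 TAA arrays of day 30 lay above every other array. The difference from BSS was 0.83 ± 0.23 (adjusted p = 0.614), and 0.48 ± 0.19 without replicate 3. Over both days TAA differed by 0.44 ± 0.17 (adjusted p = 0.957) and the TAA effect changed between the days by 0.78 ± 0.33 (adjusted p = 0.822), values that were 0.26 and 0.43 without that array. A second probe set of Col4a1 had 0.15, 0.0012 and 2.06 after TAA at day 30 and -0.51, 0.077 and 0.091 after BSS. Its difference was 0.85, and its groups overlapped.

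Col4a2 had 0.056, -0.21 and 0.033 after BSS, 0.15, 0.15 and 0.30 after DEX and -0.023, 0.093 and -0.055 after TAA at day 7, and -0.48, 0.015 and 0.061, -0.20, -0.015 and -0.037 and -0.027, -0.54 and 1.47 at day 30. It was high on TAA day 30 replicate 3 and low on replicate 2, the array on which Col4a1 was second highest. Its TAA difference at day 30 was 0.43 ± 0.32, and -0.15 ± 0.17 without replicate 3. At day 7 its DEX arrays lay above the BSS arrays without overlap, at 0.24 ± 0.32 (adjusted p of 1), or 0.16 without BSS day 7 replicate 2. Col4a5, a chain of the specialised type IV networks, was at 1.56 on TAA day 30 replicate 3 as well, and its difference of 0.87 ± 0.38 was 0.43 ± 0.36 without it. The second probe set of Col4a5 was at 0.037 on that array, with a difference of 0.17.

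Lens markers were high on that same array. Of 10 of them, crystallins among them, 9 had their highest value there, and the list mean was 3.77, against 0.14 and 0.19 on the other TAA day 30 arrays. Other lists were high there too, the pigment epithelium at 0.51 and the cornea at 0.45, each the highest of the 18 arrays, and the fibroblasts at 0.42. Nidogen 1, Nid1, which links laminin to type IV collagen, was at 4.11 on it and between -0.33 and 0.49 on the other 17. Col6a3 reached 1.98 there. The lens list was raised on BSS day 30 replicates 1 and 3 too, at 1.49 and 1.96, where Col4a1 was -0.18 and 0.28 and Col4a2 -0.48 and 0.061. The part of lens or of these other tissues in the TAA difference was not tested. On the TAA day 30 arrays without a raised lens list Col4a1 had 0.33 and 0.66, and 0.15 and 0.0012 on its second probe set.

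**Figure D3:**
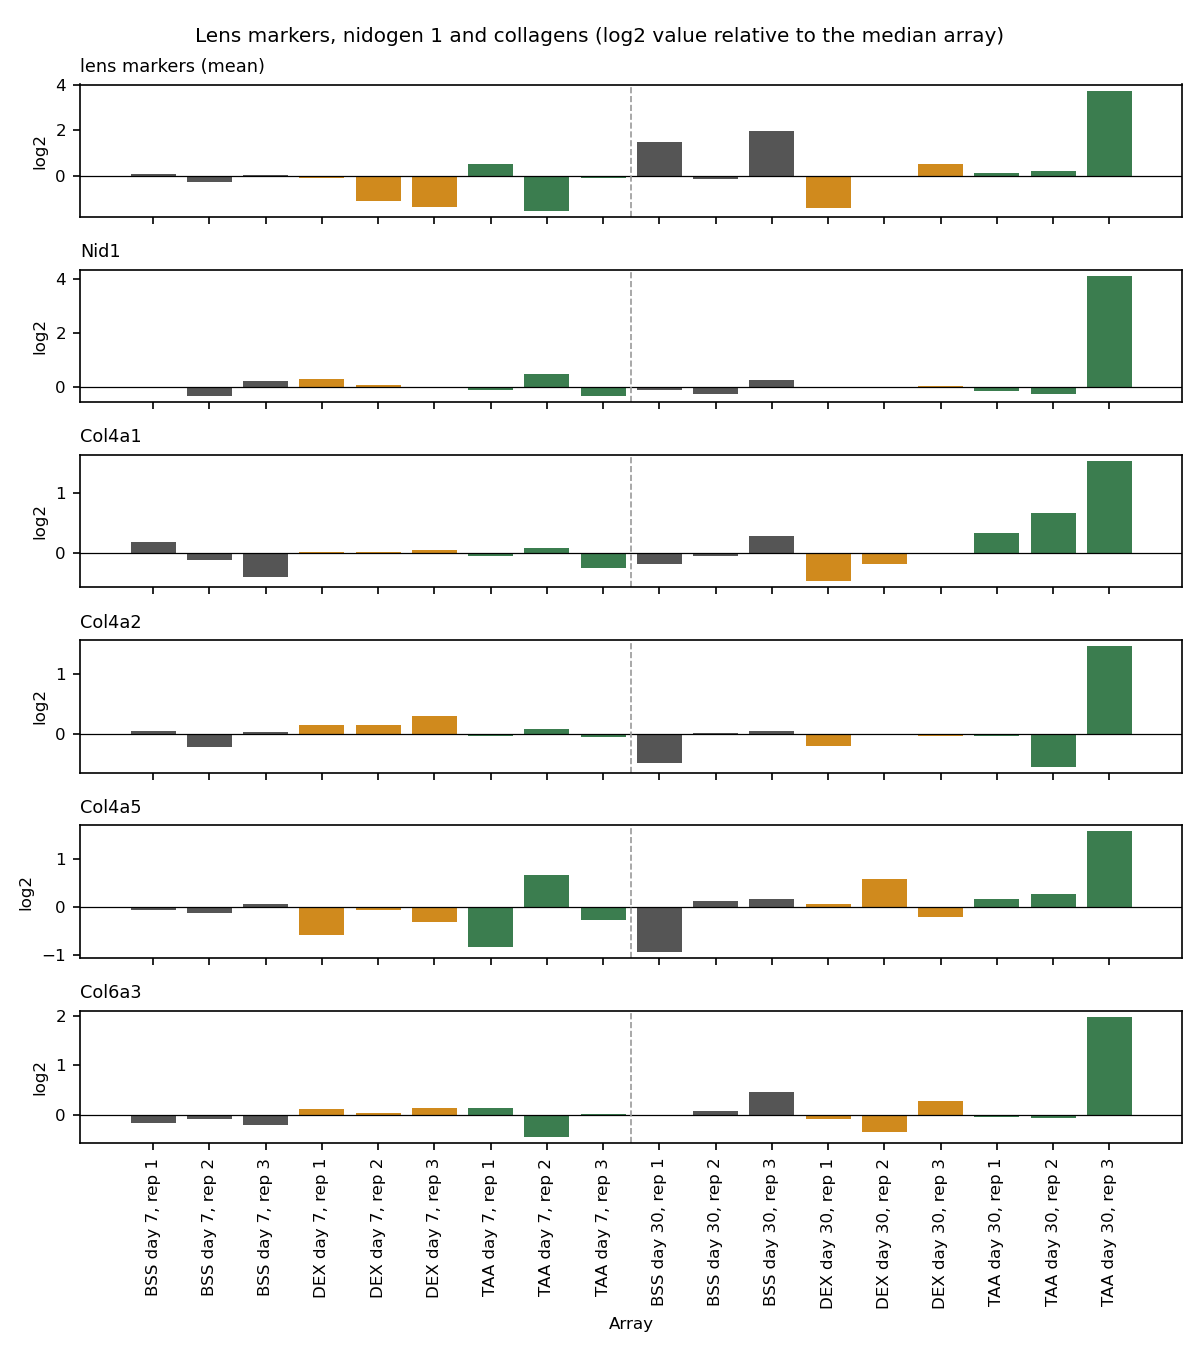
Bars give, for each of the 18 arrays, the mean of the 10 lens markers (top), nidogen 1 and 4 collagens, in log2 units relative to the median array; grey is BSS, orange DEX and green TAA. TAA day 30 replicate 3 has the highest bar in every panel, while on BSS day 30 replicates 1 and 3, where the lens markers stand at 1.49 and 1.96, the 4 collagens lie between -0.93 and 0.46.

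Col4a3 and Col4a4, which form a specialised type IV network with Col4a5, did not separate TAA from vehicle at day 30 as Col4a1 did. Their TAA differences at day 30 were 0.26 and 0.21, with overlapping groups. Col4a4 had its highest value, 0.45, on TAA day 30 replicate 3, and its second probe set stood at 0.66 there. Col4a3 had 0.31, 0.44 and 0.19 after BSS, -0.005, 0.052 and -0.011 after DEX and -0.19, 0.078 and 0.28 after TAA at day 7, and -0.30, -0.14 and -0.67, -0.012, 0.33 and -0.27 and 0.005, -0.60 and 0.26 at day 30. Col4a4 had 0.0073, 0.06 and 0.086, -0.012, -0.0051 and 0.031 and -0.53, 0.28 and 0.072 at day 7 and -0.14, -0.28 and -0.77, 0.061, 0.0051 and -0.78 and -0.21, -0.78 and 0.45 at day 30. At day 7 the DEX arrays of Col4a3 lay below the BSS arrays, by 0.30 ± 0.20 (adjusted p of 1). The DEX effect on Col4a3 changed between the days by 0.69 ± 0.28 (adjusted p = 0.546).

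Col18a1 and Col15a1 are proteoglycan collagens of vascular and epithelial basement membranes, and Col18a1 is the source of endostatin. Col18a1 had 1.09, -0.36 and 0.017 after BSS, 0.36, 0.077 and 0.32 after DEX and -0.91, -0.017 and -0.20 after TAA at day 7. At day 30 it had -0.34, -0.58 and -0.42, -0.30, 0.35 and -0.05 and 0.60, 0.024 and 0.37, so that at day 30 both drug groups lay above vehicle without overlap. These day 30 differences were 0.45 ± 0.29 for DEX (adjusted p = 0.544) and 0.78 ± 0.29 for TAA (adjusted p = 0.632). Without DEX day 30 replicate 2 the former was 0.27, and on the second probe set the values were -0.0100 and 0.37.

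At day 7 TAA differed from BSS in Col18a1 by -0.62 ± 0.29, with overlapping groups, and BSS day 7 replicate 1 was the highest of all 18 arrays. Without that array the difference was -0.20, and without TAA day 7 replicate 1 it was -0.35. The TAA effect changed between the days by 1.40 ± 0.41 (adjusted p = 0.711), or 0.83 on the second probe set. Col15a1 had -0.088, -0.11 and -0.27 after BSS, -0.33, -0.039 and 0.016 after DEX and 0.047, 0.071 and 0.0033 after TAA at day 7, and -0.013, -0.0033 and 0.11, 0.48, -0.066 and 0.20 and 0.13, 0.14 and -0.031 at day 30. TAA lay above BSS at day 7 without overlap, by 0.20 ± 0.13 (adjusted p of 1).

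Among all 42 collagens, Col8a2 had the lowest TAA difference over both days. It is a short-chain collagen of Descemet's membrane and vessels, as is its partner Col8a1. Col8a2 had 0.13, 0.34 and 0.55 after BSS, -0.046, -0.14 and 0.25 after DEX and -0.0054, -0.065 and -0.04 after TAA at day 7, and 0.05, 0.14 and 0.0054, -0.064, -0.06 and 0.15 and -0.29, -0.33 and 0.01 at day 30. TAA lay below vehicle without overlap at day 7, by 0.38 ± 0.13 (adjusted p of 1), and over both days by 0.32 ± 0.09 (adjusted p = 0.86). Col8a1 had 0.046, 0.30 and 0.46, 0.27, -0.11 and -0.046 and -0.24, 0.52 and -0.084 at day 7 and 0.24, 0.11 and -0.09, -0.36, -0.31 and 0.087 and -0.22, -0.28 and 0.12 at day 30. Its groups overlapped in each of the 4 drug comparisons.

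The type VI chains, which form beaded filaments around cells, did not move as one. Col6a1 had -0.14, 0.20 and 0.19 after BSS, -0.28, -0.0081 and 0.0081 after DEX and -0.67, -0.049 and -0.22 after TAA at day 7, and -0.25, 0.27 and 0.39, -0.51, 0.081 and -0.12 and 0.13, 0.38 and 0.36 at day 30. Col6a3 had -0.17, -0.10 and -0.21, 0.12, 0.022 and 0.13 and 0.13, -0.46 and 0.018 at day 7 and -0.018, 0.071 and 0.46, -0.092, -0.35 and 0.28 and -0.048, -0.067 and 1.98 at day 30. DEX lay above BSS in Col6a3 at day 7 without overlap, by 0.25 ± 0.37 (adjusted p of 1). Its day 30 TAA difference of 0.45 ± 0.37 was -0.23 ± 0.19 without replicate 3.

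Col12a1, which binds to type I fibrils, had -0.026, -0.18 and -0.19 after BSS, -0.10, -0.14 and 0.06 after DEX and 0.19, -0.51 and -0.058 after TAA at day 7. At day 30 it had 0.10, 0.23 and 0.041, 0.054, -0.14 and 0.22 and -0.17, 0.11 and 0.026 in the same order. Col25a1, a transmembrane collagen of neurons, had -0.21, 0.17 and 0.24, -0.12, 0.26 and -0.16 and -0.36, 0.43 and -0.094 at day 7 and -0.31, 0.092 and -0.0012, 0.0023, 0.14 and -0.38 and -0.021, 0.10 and 0.0012 at day 30. Neither separated a drug from vehicle.

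Counted over all 42, few collagens separated from vehicle. After DEX at day 7, 2 lay above and 3 below all vehicle arrays, where 7.21% and 7.08% of all genes did. After TAA at day 7 the counts were 3 and 4, against 4.35% and 4.96%. At day 30, 3 lay above and 3 below after DEX, against 4.46% and 9.94%, and 5 above and 1 below after TAA, against 5.86% and 7.54%. These 4 comparisons share the vehicle arrays of their day.

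No collagen passed an adjusted p of 0.05 in any drug comparison with limma. The share of all genes that passed was 0% after DEX at either day and after TAA at day 30, and 0.0055% (1 gene) after TAA at day 7. It was 0% too for either drug over both days and for the change of either drug effect between the days. At an unadjusted p under 0.05 the collagens numbered 3 after DEX at day 7, 4 after TAA at day 7, 2 after DEX at day 30 and 4 after TAA at day 30, against 3.91%, 3.95%, 11.5% and 7.24% of all genes. For both days together they numbered 1 for DEX and 3 for TAA, against 5.38% and 4.68% of all genes, and for the change between the days 4 and 4, against 8.56% and 6.01%. In a further limma fit each array was weighted by its spread around the fitted group means over all genes. With these weights 4 collagens passed after DEX at day 30, among them Col9a1 at 0.63 (adjusted p = 0.0402). In the change of the DEX effect 2 passed, Col11a2 at 0.54 (adjusted p = 0.035) and Col4a3 at 0.78 (adjusted p = 0.03). The same weights called 14.8% and 9.5% of all genes, so that neither count exceeds the share of all genes.

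Some further members separated from vehicle without passing. At day 7 TAA lay below BSS in Col7a1, the chain of skin anchoring fibrils, by 0.44 ± 0.15 and in Col26a1 by 0.15 ± 0.16, and above it in Col14a1, a fibril-associated collagen, by 0.23 ± 0.13 (adjusted p of 1 in each). Col14a1 turned to -0.10 on its second probe set, and was 0.15 without BSS day 7 replicate 2. DEX at day 7 lay below BSS in Col24a1 by 0.12 ± 0.10 and in Col5a1 by 0.11 ± 0.12, the latter 0.11 above it on the second probe set.

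At day 30 the hemidesmosome collagen Col17a1 lay below BSS after both drugs, by 0.24 ± 0.12 each (adjusted p = 0.44 for DEX and 0.695 for TAA). Over both days TAA differed by -0.18 ± 0.08 (adjusted p = 0.957). The DEX difference was -0.13 without DEX day 30 replicate 2. Col5a1, the main chain of type V collagen, lay below BSS after DEX at day 30 by 0.24 ± 0.12 (adjusted p = 0.456), by 0.14 without the same array, and above it by 0.085 on the second probe set.

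The 2 glucocorticoids were compared directly at each day, at doses not given in the sources used here. At day 30 DEX lay below TAA in 4 collagens and above it in 1 without overlap, where 8.97% and 5.78% of all genes did. Col4a1 differed by -1.07 ± 0.23 (95% interval -1.56 to -0.58, adjusted p = 0.075), and by -0.72 ± 0.19 without TAA day 30 replicate 3 (adjusted p = 0.0825). Col5a1 differed by -0.46 ± 0.12 (-0.72 to -0.20, adjusted p = 0.0983), Col6a1 by -0.47 ± 0.19 (adjusted p = 0.223) and Col11a2 by 0.27 ± 0.13 (adjusted p = 0.297). Without DEX day 30 replicate 3, Col4a1 (-1.18, adjusted p = 0.0176) and Col5a1 (-0.50, adjusted p = 0.0423) passed. That omission called 1253 of all 18193 genes. The second probe sets gave 0.0092 for Col5a1 and -0.76 for Col4a1, the latter with overlapping groups. Col6a1 was -0.31 without DEX day 30 replicate 1. With weighted arrays 7 of the 42 collagens passed at day 30, where 13% of all genes did, among them Col4a1 at -1.40 (adjusted p = 0.00403).

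At day 7 DEX lay above TAA in 2 collagens and below it in 0, where 6.23% and 5.46% of all genes did. These were Col18a1, by 0.63 ± 0.29 (0.0099 to 1.24, adjusted p = 0.772) and 0.36 without TAA day 7 replicate 1, and Col4a2, by 0.20 ± 0.32 (adjusted p = 0.973). For Col3a1 the interval of the difference ran from -0.40 to 1.46 and for Col1a2 from -0.15 to 0.90, so neither sign nor equality was shown. Over the 42 collagens, 40 of the 95% intervals lay within 1 log2 unit of 0 at day 7 and 38 at day 30, and within 0.5 units 22 and 16 did. No collagen passed, where 0.0055% of all genes did at day 7 (1 gene) and 0% at day 30, and at an unadjusted p under 0.05 there were 1 and 4 collagens, against 6.47% and 16.6% of all genes.

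The genes that make and handle collagen gave 1 call. Adamts3, which removes the N-terminal propeptide of procollagen, fell from day 7 to day 30 over the treatments by 0.34 ± 0.07 (adjusted p = 0.0234), in the comparison where 2.96% of all genes passed. Its values at day 7 were 0.082, 0.22 and 0.27 after BSS, 0.26, 0.43 and -0.0026 after DEX and -0.27, 0.11 and 0.11 after TAA. At day 30 they were -0.41, -0.21 and -0.31 after BSS, -0.37, -0.22 and -0.23 after DEX and 0.039, -0.14 and 0.0026 after TAA. Within a treatment, only its TAA arrays overlapped between the days. None of the 9 other measured genes of procollagen processing and crosslinking passed in any comparison, with Lox, the crosslinking oxidase, at -0.22 ± 0.07 (adjusted p = 0.108) and Pcolce, an enhancer of procollagen cleavage, at -0.48 ± 0.17 (adjusted p = 0.118) between the days.

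No gene passed in any of the 12 comparisons among the 17 for collagen folding and modification, the 11 for collagen degradation and its inhibitors, the 8 collagen receptors and the 12 partners in basement membranes. For folding and modification 8 of 17 did not overlap between DEX and TAA at day 30, 6 of them lower after DEX, where 5.78% of all genes lay higher and 8.97% lower. Among these were P3h1, a prolyl hydroxylase, at -0.27 ± 0.12 (adjusted p = 0.272) and, higher after DEX, Plod2, a lysyl hydroxylase, at 0.29 ± 0.10 (adjusted p = 0.159). For degradation, 4 of 11 lay above vehicle and 1 below after DEX at day 7 without overlap, against 7.21% and 7.08% of all genes. Mmp2, a gelatinase, was at 0.29 ± 0.13 and Mmp13, a collagenase, at -0.18 ± 0.08 (adjusted p of 1 in both).

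After TAA at day 30, Lox lay below vehicle by 0.40 ± 0.13 (adjusted p = 0.618) and Pcolce above it by 0.82 ± 0.29 (adjusted p = 0.619). Between the BSS groups, 3 of the 8 collagen receptors did not overlap, where 10.6% of all genes lay higher and 12.2% lower, among them Itga1, an integrin chain, at 0.39 ± 0.13 (adjusted p = 0.522) and Ddr2, a receptor kinase for fibrillar collagen, at -0.40 ± 0.18 (adjusted p = 0.617). Of the basement membrane partners, 4 of 12 did not overlap between DEX and BSS at day 7, where 7.21% of all genes lay higher and 7.08% lower, with Nid2, a nidogen, at -0.19 ± 0.11 and Lama2, a laminin chain, at -0.16 ± 0.15 (adjusted p of 1 in both).

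Collagen genes often lie next to each other, and 7 pairs of members within 100 kb were compared over the 18 arrays. The permutations shuffled the arrays without regard to group. Members farther apart were not compared, so the part of nearness was not tested. Col3a1 and Col5a2, which lie 24624 bases apart on chromosome 1, had a Pearson correlation of 0.847 and a Spearman correlation of 0.692 (permutation test with 100000 resamples, adjusted p = 0.00021 and 0.00668 over the 7 pairs). Without DEX day 7 replicates 1 and 3, the arrays farthest from the median, r was 0.66. Within groups, after removing the group means, it was 0.816. Col1a2, which lies on chromosome 6, also had its 2 highest values on DEX day 7 replicates 1 and 3.

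Col4a3 and Col4a4 overlap at their divergent starts on chromosome 1. Their r was 0.82 and their rho 0.73 (permutation test, adjusted p = 0.00021 and 0.00546), with 0.77 left without the 2 farthest arrays and 0.847 within groups. Col4a1 and Col4a2 on chromosome 8 are also divergent, with starts 21 bases apart. Their r was 0.663 and their rho 0.41 (permutation test, adjusted p = 0.0896 and 0.217), and r was 0.415 without TAA day 30 replicates 2 and 3. The other 4 pairs had r between 0.0075 and 0.282, the latter for Col4a5 and Col4a6, whose starts lie 1343 bases apart, and none passed.

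**Figure D4:**
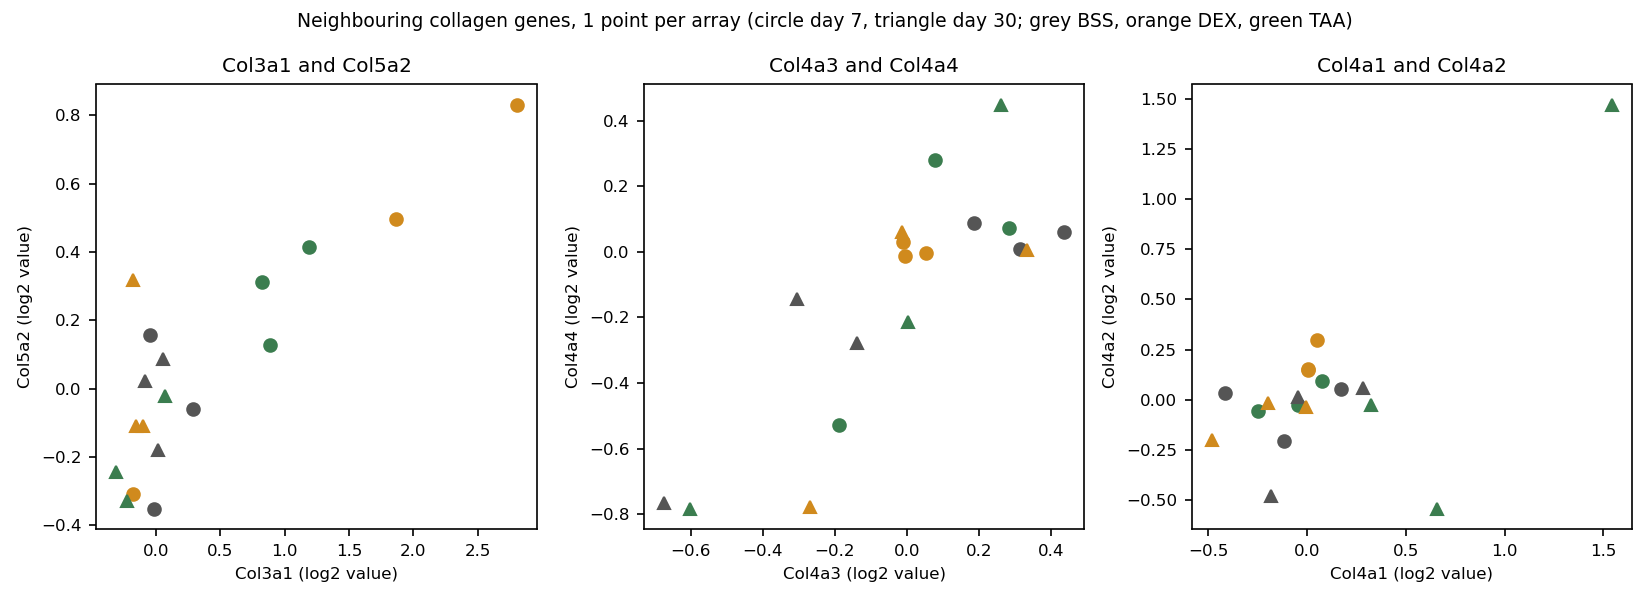
Each panel sets the log2 values of 2 neighbouring collagen genes against each other, 1 point per array, with circles for day 7 and triangles for day 30. Col3a1 with Col5a2 and Col4a3 with Col4a4 vary together over the arrays (r of 0.847 and 0.82), while the relation of Col4a1 with Col4a2 (r of 0.663) leans on TAA day 30 replicate 3.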

How the data were processed

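Per the labels' protocols, retinas were stored in RNAlater, RNA was isolated on Qiagen columns and biotinylated cRNA was made with repeated rounds of amplification. The deposited values are log2 values made by the authors with RMA, per the submitters' processing notes; its version and any filter are not given in the sources used here. In all 45101 probe sets the median over the 18 arrays lay within 5e-07 of 0, so the values are centred and a filter on level could not be applied. The log base and the direction follow RMA's convention. Probe sets naming 1 gene in the platform annotation were kept, with the 1 of highest interquartile range per gene, which gave 18193 genes. The 42 collagens had 82 probe sets.

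A linear model of the 6 group means was fitted to the 18 arrays (limma 3.58.1, R 4.3.3, with 12 residual and 5.21 prior degrees of freedom). Adjusted p-values follow Benjamini and Hochberg over the 18193 genes and were called at 0.05. They measure the spread between these 3 replicates a group. The labels used here name no batch or scan date. The fit was tested on simulated data. The comparisons were 4 of a drug with vehicle, 2 between the drugs, 2 between the days and 4 pooled or interaction effects. With 3 arrays a group, precision is limited by their number.

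By rule, array values are given for the gene called and for 19 further collagens of known roles. Differences are given for members that passed and for up to 3 highest and 3 lowest among members without overlap between the groups, or at an unadjusted p under 0.05 in pooled and interaction comparisons; further differences belong to those 20 genes and to Col4a5, chosen after its values were seen. Members, gene lists and this rule were chosen with earlier results of these data known. Alternatives changed the probe set, the normalization, the arrays and weights in the fit, a replicate block and a filter on variation, and left out each array in turn. Neighbours were compared with permutation tests in scipy 1.17.1. Promoter sequences are from RefSeq, GRCm38.p6.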

Additional observations from a re-analysis of the deposited data

How the results depend on the processing

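Among the tested differences of single genes under these alternatives, 785 of 822 kept their direction and their side of the threshold, and 11 turned. The Col19a1 difference between the days over treatments passed in each alternative run. All 11 reversals came from the choice of probe set, and the cause was not tested. With the second probe set the differences were 0.11 for Col5a1, DEX against BSS at day 7, -0.10 for Col14a1 and -0.045 for Col3a1, TAA at day 7, 0.085 for Col5a1 and -0.0100 for Col18a1, DEX at day 30, 0.0092 for Col5a1, DEX against TAA at day 30, -0.023 for Col12a1 between the BSS groups, 0.020 for Col3a1 and 0.55 for Col1a2 between the days over treatments, and -0.10 for Col1a2, DEX over days. With the mean of probe sets, Col5a1 after DEX at day 7 gave 0.0077.

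Array weights called 4 collagens for DEX against BSS at day 30, 7 for DEX against TAA at day 30, 2 between the BSS groups, 10 between the days over treatments and 2 for the change of the DEX effect. Between the days over treatments, quantile normalization called 3, the filter on the interquartile range 2 and the replicate block 2, the second being Col3a1. Of all genes these settings called 730 of 18193, 518 of 13645 and 610 of 18193, in that order. The labels used here do not say whether the replicate numbers pair the arrays. The deviations of arrays with the same number correlated with a median of 0.0388 (from -0.228 to 0.464 over 45 pairs). These values range too widely to decide it. Over all genes the comparison of the days over treatments called 539. It called 3222 with array weights, 353 with the mean, 283 with the second probe set, and between 116 and 775 when 1 array was left out. Between the BSS groups 5 genes were called, against 527 with array weights, 50 with quantile normalization, 3 with the compared arrays only or the second probe set, and between 0 and 2 without one of 5 of its arrays. Array weights called 2699 genes for DEX and 1 for TAA at day 30, 164 and 49 at day 7, 789 and 6 over both days, 747 and 2367 for DEX against TAA at days 7 and 30, and 1728 and 17 for the changes of the DEX and TAA effects, where at most 1 was called without weights. Without DEX day 30 replicate 3, DEX at day 30 called 695 and DEX against TAA 1253. The replicate block called 101 for DEX against TAA at day 30, and the compared arrays only 10 for the change of the DEX effect. The other settings called at most 3 in these drug comparisons, and leaving out other arrays at most 15.

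Leaving out 1 array gave between 0 and 1 called collagens for DEX at day 7, DEX over days, the change of the DEX effect and the BSS groups, between 0 and 2 for DEX against TAA at day 30 and between 1 and 3 for the days over treatments. Of all genes, such omissions called at most 1 in the first DEX comparisons, 5 between the BSS groups and 1253 for DEX against TAA at day 30. For the days over treatments they called between 116 and 775. The median collagen difference then ran from -0.073 to -0.0017 for TAA at day 7, from -0.088 to 0.0044 for DEX and from -0.0059 to 0.10 for TAA at day 30, from 0.036 to 0.13 for DEX against TAA at day 7 and from -0.10 to -0.00064 at day 30, from -0.061 to 0.047 between the BSS groups, from -0.035 to 0.039 for TAA over days, from -0.16 to 0.024 for the change of the DEX effect and from 0.0072 to 0.17 for that of the TAA effect. With the second probe set the median was 0.0093 for DEX at day 30, 0.017 between the BSS groups and -0.018 for the change of the DEX effect. With the mean of probe sets it was 0.020 between the BSS groups and 0.066 for the change of the TAA effect, with quantile normalization -0.020 for the change of the DEX effect, and with array weights 0.043 for TAA over days.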
